A study of Homo sapiens with 5 samples.

Results

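The genes described here are 9 of a list of 10 neighbors on the long arm of human chromosome 5, around band 5q15. They lie in the order ARRDC3, NR2F1-AS1, NR2F1, KIAA0825, SLF1, MCTP1, TTC37, ARSK and RHOBTB3. The locus was chosen by the log2 values of NR2F1 and KIAA0825, which were higher in cells that overexpress DDB2, and the other genes were taken by their place beside and between them. These 9 genes were each measured by a single probe set that carries their symbol alone. All 9 passed the filter on low values, among 15396 genes that did. TTC37 carries the current symbol SKIC3 in that annotation.

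The DDB2-overexpressing cells were 3 clones of A2780-CP70, a cisplatin-resistant derivative of the human ovarian cancer cell line A2780, stably transfected with a DDB2-expressing vector and numbered 1, 2 and 3 in the labels. They were set against 2 clones of the same line stably transfected with empty vector, which the labels number 1 and 3. Every array stands for a single clone, so the spread within a group is the spread between clones, and both groups went through stable transfection. The arrays were compared to ask which genes differ when DDB2, a damage recognition protein of nucleotide excision repair, is overexpressed. Values are RMA values on the log2 scale, where a difference of 1 is a 2-fold difference.

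NR2F1 encodes COUP-TFI, an orphan nuclear receptor that binds repeats of the motif AGGTCA and is known for its part in the development of the brain and the neural crest. NR2F1-AS1 is a long non-coding RNA read from the opposite strand, whose annotated body overlaps NR2F1. KIAA0825 is a little-studied gene that has been tied to extra digits in humans. Its start faces that of SLF1, which brings the SMC5/6 complex to damaged DNA. When starts face each other this closely, a single stretch of DNA can serve as the promoter region of both genes.

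The start regions of KIAA0825 and SLF1 are shown because these facing neighbors were both higher in every DDB2 clone. The first annotated start of KIAA0825 and that of SLF1 lie 65 bases apart, and the windows from 250 bases before to 50 bases after each start share 164 bases (RefSeq, GRCh38.p14), which are set in capitals. KIAA0825 has another annotated start, 544 bases from that of SLF1, whose window shares 0 bases with that of SLF1. The log2 fold changes of KIAA0825 and SLF1 had the same direction but lay 1.42 apart. That distance was at the 99.7 percentile of 755 measured pairs on opposite strands whose windows share bases. The median distance of those pairs was 0.16, and 421 of them had the same direction. KIAA0825 is also a gene whose rise chose the locus. The window of KIAA0825 is chr5:94618555-94618854 on the minus strand and that of SLF1 is chr5:94618419-94618718 on the plus strand.
KIAA0825: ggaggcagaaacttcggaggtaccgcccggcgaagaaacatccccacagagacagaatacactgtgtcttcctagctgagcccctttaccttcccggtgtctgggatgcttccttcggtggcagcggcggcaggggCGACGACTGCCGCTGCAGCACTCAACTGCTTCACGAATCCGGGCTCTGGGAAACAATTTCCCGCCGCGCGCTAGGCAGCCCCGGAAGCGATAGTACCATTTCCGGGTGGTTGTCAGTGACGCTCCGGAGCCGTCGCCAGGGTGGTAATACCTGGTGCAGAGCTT
SLF1: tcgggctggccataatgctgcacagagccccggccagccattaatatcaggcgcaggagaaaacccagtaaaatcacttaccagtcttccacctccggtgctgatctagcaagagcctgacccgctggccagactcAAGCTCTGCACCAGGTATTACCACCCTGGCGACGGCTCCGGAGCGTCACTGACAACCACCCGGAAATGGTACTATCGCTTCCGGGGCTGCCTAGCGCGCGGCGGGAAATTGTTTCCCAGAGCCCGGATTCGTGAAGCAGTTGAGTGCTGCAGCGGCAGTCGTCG

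The start regions of TTC37 and ARSK are shown as a facing pair in which neither gene lay higher in all DDB2 clones. Their starts lie 124 bases apart and their windows share 223 bases, again in capitals. In a further facing pair, not shown, the second annotated start of ARRDC3 lies 250 bases from that of ARRDC3-AS1 and their windows share 251 bases. The window of TTC37 is chr5:95554928-95555227 on the minus strand and that of ARSK is chr5:95554851-95555150 on the plus strand.
TTC37: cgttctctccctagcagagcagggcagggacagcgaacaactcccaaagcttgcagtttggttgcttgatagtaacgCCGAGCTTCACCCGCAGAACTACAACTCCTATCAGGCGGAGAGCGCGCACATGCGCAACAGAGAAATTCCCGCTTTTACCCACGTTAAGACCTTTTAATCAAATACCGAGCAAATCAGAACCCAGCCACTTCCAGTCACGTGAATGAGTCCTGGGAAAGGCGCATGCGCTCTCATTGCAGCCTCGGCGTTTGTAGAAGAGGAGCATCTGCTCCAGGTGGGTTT
ARSK: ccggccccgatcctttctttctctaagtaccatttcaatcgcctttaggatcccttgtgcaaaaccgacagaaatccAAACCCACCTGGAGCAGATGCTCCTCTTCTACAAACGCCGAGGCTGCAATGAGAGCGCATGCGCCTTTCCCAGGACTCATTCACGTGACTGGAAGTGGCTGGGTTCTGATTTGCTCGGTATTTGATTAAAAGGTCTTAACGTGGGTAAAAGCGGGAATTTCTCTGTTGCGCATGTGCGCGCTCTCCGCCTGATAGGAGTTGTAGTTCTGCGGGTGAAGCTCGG

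The windows of NR2F1 and its antisense RNA are shown because both were higher in every DDB2 clone although their starts share no bases. The first annotated start of NR2F1-AS1 lies inside NR2F1, and the windows are chr5:93582972-93583271 on the plus strand for NR2F1 and chr5:93585540-93585839 on the minus strand for NR2F1-AS1. These are the windows of the first of 5 annotated starts of NR2F1-AS1 and of the first of 2 of NR2F1. Another start of NR2F1-AS1 lies 2003 bases before the first of NR2F1 and faces it, and their windows share 0 bases. Capitals mark the GC box GGGCGG and the CCAAT box CCAAT, searched on both strands.
NR2F1: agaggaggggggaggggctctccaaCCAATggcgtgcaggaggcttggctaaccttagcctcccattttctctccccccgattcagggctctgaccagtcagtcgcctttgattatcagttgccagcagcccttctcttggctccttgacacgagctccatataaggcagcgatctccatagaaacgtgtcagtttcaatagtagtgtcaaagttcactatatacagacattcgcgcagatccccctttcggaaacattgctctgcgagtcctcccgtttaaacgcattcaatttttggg
NR2F1-AS1: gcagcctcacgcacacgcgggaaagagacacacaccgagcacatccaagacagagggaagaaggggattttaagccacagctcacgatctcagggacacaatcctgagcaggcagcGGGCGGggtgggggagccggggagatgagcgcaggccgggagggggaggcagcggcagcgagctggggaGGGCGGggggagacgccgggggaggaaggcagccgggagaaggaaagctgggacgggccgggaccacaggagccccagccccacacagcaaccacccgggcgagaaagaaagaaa
The window of NR2F1 holds 1 CCAAT box, a motif found in 34.6% of 35116 RefSeq start windows, and that of NR2F1-AS1 holds 2 GC boxes, a motif found in 44.95% of them. AGGTCA, searched on both strands and present in 13.8% of all windows, is in none of the 6 windows shown.

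NR2F1 was 3.85-fold higher in the DDB2 clones than in the vector clones. Its log2 values were 8.83, 8.34 and 8.15 in DDB2 clones 1, 2 and 3, against 6.81 and 6.18 in vector clones 1 and 3. The groups did not overlap, and the lowest DDB2 clone exceeded the highest vector clone by 1.34 on the log2 scale. The log2 fold change was 1.95 (standard error 0.294, 95% confidence interval, CI, 1.18 to 2.71). This difference and that of KIAA0825 chose the locus, so both are given as a description without a test.

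KIAA0825 was 5.30-fold higher on average, with a far wider spread between clones. Its log2 values were 5.39, 7.34 and 7.17 in DDB2 clones 1, 2 and 3, against 4.80 and 3.65 in vector clones 1 and 3. DDB2 clone 1 stood apart from the other DDB2 clones and lay only 0.59 above vector clone 1. The log2 fold change was 2.41 (standard error 0.730, 95% CI 0.50 to 4.32). Among all genes measured, the range of 1.95 between the DDB2 clones was at the 98.1 percentile and the range of 1.15 between the vector clones at the 96.3 percentile. The value of vector clone 3 lay under the filter level of 4.48, the median of all deposited values, so the fold change reaches down to weak signals.

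**Figure D1:**
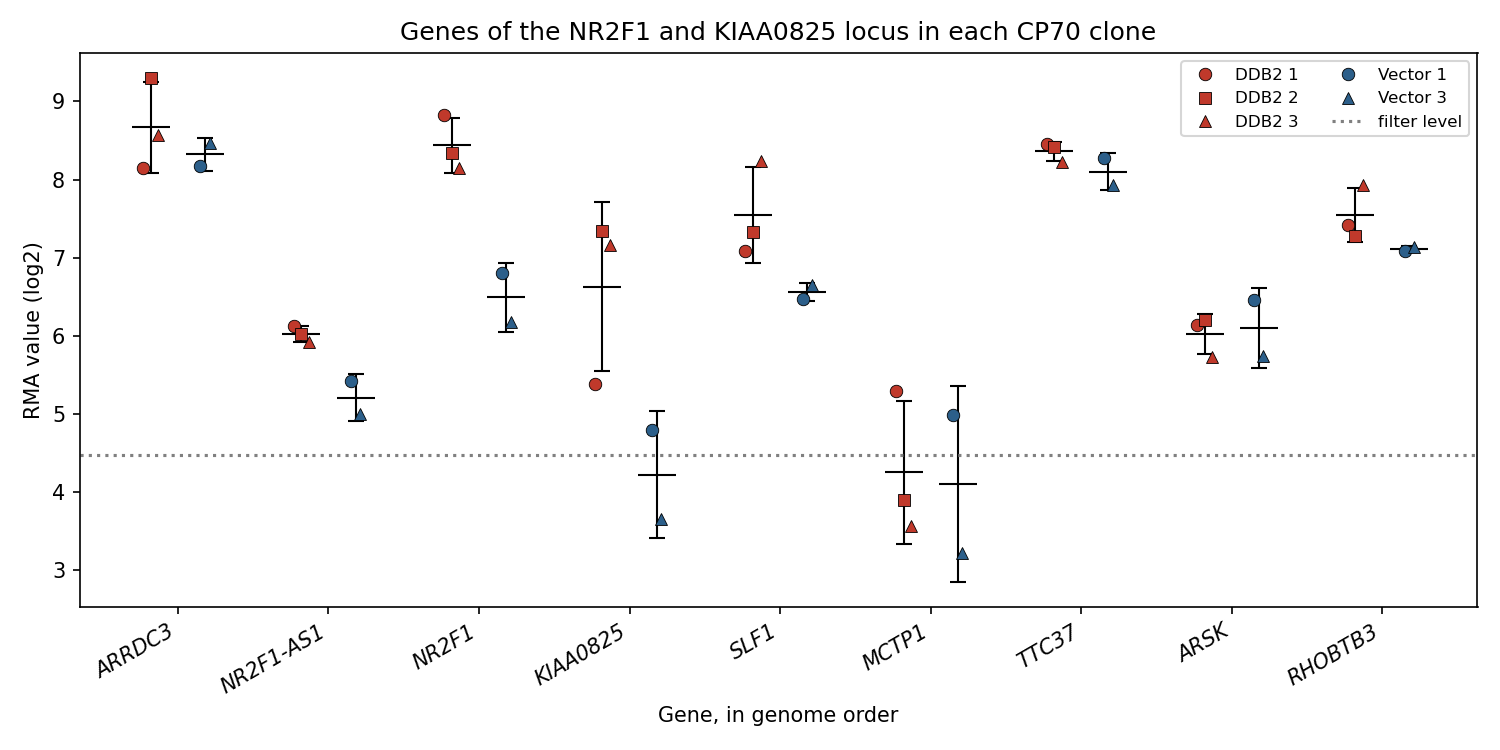
RMA values (log2, vertical axis) of the 9 measured genes in genome order, with a point for each clone of the DDB2 (red, left) and vector (blue, right) groups, the mean and SD of each group (n = 3 and n = 2) as bars, and the filter level as a dotted line. NR2F1 and NR2F1-AS1 separate the groups by 1.34 and 0.50, KIAA0825 separates them with DDB2 clone 1 near vector clone 1, and MCTP1 runs from 3.22 to 5.30 with the groups mixed.

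NR2F1-AS1 was higher in the DDB2 clones by a smaller step than NR2F1 and with the same order of clones. Its log2 values were 6.12, 6.03 and 5.93 in DDB2 clones 1, 2 and 3, against 5.43 and 5.00 in vector clones 1 and 3. The DDB2 clones lay within 0.197 of each other and all above both vector clones. The log2 fold change was 0.82 (standard error 0.162, 95% CI 0.39 to 1.24), or 1.76-fold, which does not reach the 2-fold threshold. Set against the mean of the vector clones, NR2F1 was higher by 2.34, 1.85 and 1.65 in DDB2 clones 1, 2 and 3, and NR2F1-AS1 by 0.91, 0.82 and 0.72. In both genes the difference was largest in DDB2 clone 1 and smallest in DDB2 clone 3. NR2F1 and NR2F1-AS1 overlap on opposite strands, and whether their probe sets kept the strands apart was not tested.

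SLF1, which faces KIAA0825, was 1.98-fold higher in the DDB2 clones, just short of the 2-fold threshold. Its log2 values were 7.08, 7.33 and 8.24 in DDB2 clones 1, 2 and 3, against 6.48 and 6.65 in vector clones 1 and 3. No DDB2 clone overlapped a vector clone, and the lowest DDB2 clone lay 0.43 above the highest vector clone. The log2 fold change was 0.99 (standard error 0.375, 95% CI 0.01 to 1.97). The rise of KIAA0825 over the vector mean was 1.17, 3.11 and 2.94 in DDB2 clones 1, 2 and 3, and that of SLF1 was 0.52, 0.76 and 1.68. Both genes were thus closest to the vector clones in DDB2 clone 1, while KIAA0825 was highest in DDB2 clone 2 and SLF1 in DDB2 clone 3.

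RHOBTB3, which encodes a protein with ATPase activity, was the farthest gene of the list with all DDB2 clones above both vector clones. Its log2 values were 7.42, 7.28 and 7.93 in DDB2 clones 1, 2 and 3, against 7.08 and 7.14 in vector clones 1 and 3. The gap between the groups was only 0.14, and the log2 fold change was 0.43 (standard error 0.221, 95% CI -0.15 to 1.01). Like SLF1, RHOBTB3 was highest in DDB2 clone 3.

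The remaining neighbors had overlapping groups. ARRDC3, an alpha-arrestin that links membrane receptors to ubiquitin ligases, had log2 values of 8.14, 9.30 and 8.57 in DDB2 clones 1, 2 and 3, against 8.17 and 8.47 in vector clones 1 and 3. Its high value was that of DDB2 clone 2, and DDB2 clone 1 was the lowest of all 5 arrays. The groups differed by 0.35 on the log2 scale (95% CI -0.61 to 1.31). TTC37, the scaffold subunit of the SKI complex that feeds RNA to the cytoplasmic exosome, had log2 values of 8.45, 8.41 and 8.22 in DDB2 clones 1, 2 and 3, against 8.27 and 7.93 in vector clones 1 and 3. DDB2 clone 3 lay just under vector clone 1, and the log2 fold change was 0.26 (95% CI -0.13 to 0.65).

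ARSK, a lysosomal sulfatase that faces TTC37, had log2 values of 6.13, 6.21 and 5.73 in DDB2 clones 1, 2 and 3, against 6.46 and 5.74 in vector clones 1 and 3. The groups lay over each other, with a log2 fold change of -0.08 (95% CI -0.80 to 0.65). MCTP1, a membrane protein with calcium-binding C2 domains, had log2 values of 5.30, 3.91 and 3.57 in DDB2 clones 1, 2 and 3, against 4.99 and 3.22 in vector clones 1 and 3. The clones split by number and not by group, since both clones numbered 1 were above the filter level and the other 3 below it. Its log2 fold change of 0.15 (95% CI -1.84 to 2.14) was -0.74 without vector clone 3 and -0.37 without DDB2 clone 1.

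A gene was called where limma gave it over 2-fold and P under 0.05 before adjustment, the thresholds the study set. By these, 2 of the 9 measured genes were called higher, and these were NR2F1 and KIAA0825. None was called lower. Over all 15396 genes, 0.169% were called higher and 0.195% lower. The 2 calls are those the choice of the locus used and so say nothing about its other genes. Of the 7 neighbors, none was called in either direction, and none passed an adjusted p under 0.05 (each had an adjusted p = 0.999 from limma). Before adjustment limma gave 2 of the neighbors a P under 0.05, NR2F1-AS1 at 0.00471 and SLF1 at 0.0492. No gene at all passed an adjusted p under 0.05 from limma, and 449 genes had a P under 0.05 before adjustment. The DDB2 clones lay above both vector clones in 3 of the 7 neighbors, NR2F1-AS1, SLF1 and RHOBTB3, and below both in none, where 5.93% of all genes lay above and 12.5% below.

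**Figure D2:**
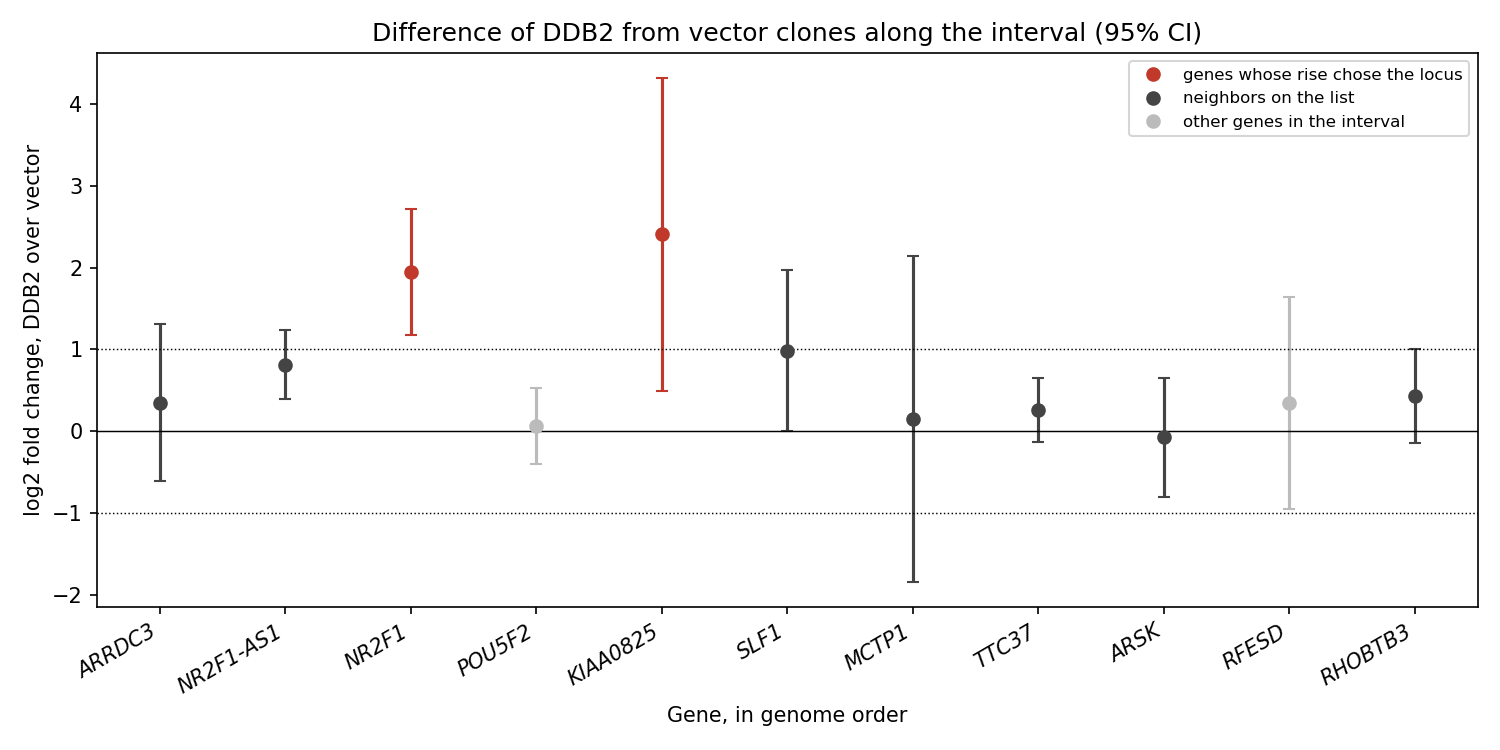
log2 fold change of DDB2 over vector clones with its 95% CI (vertical axis) for the 11 genes from ARRDC3 to RHOBTB3 that passed the filter, in genome order (horizontal axis), with dotted lines at a 2-fold difference. NR2F1 at 1.95 and KIAA0825 at 2.41 stand above their neighbors, POU5F2 between them is at 0.07, and NR2F1-AS1 and SLF1 are the neighbors whose intervals exclude 0.

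The higher values did not form an unbroken block. POU5F2, a POU domain gene that lies between NR2F1 and KIAA0825, had log2 values of 5.73, 5.75 and 5.35 in DDB2 clones 1, 2 and 3, against 5.68 and 5.41 in vector clones 1 and 3. Its groups overlapped, with a log2 fold change of 0.07 (95% CI -0.40 to 0.53). RFESD, a Rieske domain gene between ARSK and RHOBTB3, differed by 0.34 on the log2 scale (95% CI -0.96 to 1.64), its groups overlapping. ARRDC3-AS1, FAM81B and SPATA9 also lie in the interval, but stayed under the filter level on all 5 arrays, from 4.04 to 4.28, from 2.45 to 2.58 and from 2.53 to 2.78.

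Leaving out NR2F1 and KIAA0825, the median difference over the 9 other genes of the interval that passed the filter was 0.34 on the log2 scale, and 8 of the 9 lay above 0. All genes had a median of -0.02, with 6992 of 15396 above 0, and those of chromosome 5 a median of 0.004, with 321 of 628 above 0. The 20 genes before ARRDC3 had a median of 0.08 and the 20 genes after RHOBTB3 a median of 0.08, with 15 of 20 above 0 on each side. None of these 40 flanking genes was called, where 0.169% of all genes were called higher and 0.195% lower. The largest flanking values were those of PAM, an enzyme that amidates peptides, at 1.33 (95% CI -0.02 to 2.69), and ELL2, an elongation factor of RNA polymerase, at 0.93 (95% CI -0.37 to 2.24). Both were named after their values were seen. Among the 16 alternative settings PAM was called in 5, ELL2 in 2 and ERAP2, an aminopeptidase, in 1. Along the 628 measured genes of chromosome 5, the median over 21 neighboring genes ran from 0.26 to 0.34 within the interval, in windows that include NR2F1 and KIAA0825. The highest such median on chromosome 5 was 0.34.

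Vector clone 3 had low values along this stretch. It lay below vector clone 1 in 8 of the 11 measured interval genes and in 30 of the 40 flanking genes (75%). That was so for 49.1% of all genes and 55.1% of those on chromosome 5. Vector clone 3 was the lowest of the 5 arrays in 6 of the 11 interval genes and in 45.0% of the flanking genes. It was the lowest in 20.9% of all genes and 25.8% of those on chromosome 5. Without vector clone 3 the median of the 9 other interval genes was 0.09 and that of the flanking genes was -0.02. The median over 21 genes then ran from 0.02 to 0.12 within the interval, where the highest on chromosome 5 was 0.18. Without vector clone 1 the flanking median was 0.27. The median over 21 genes then ran from 0.39 to 0.43 within the interval, where the highest on chromosome 5 was 0.45. NR2F1 kept a log2 fold change of 1.63 without vector clone 3 and KIAA0825 1.83, where KIAA0825 was no longer called. KIAA0825 also lost its call without DDB2 clone 2 (2.05) and without DDB2 clone 3 (2.14).

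**Figure D3:**
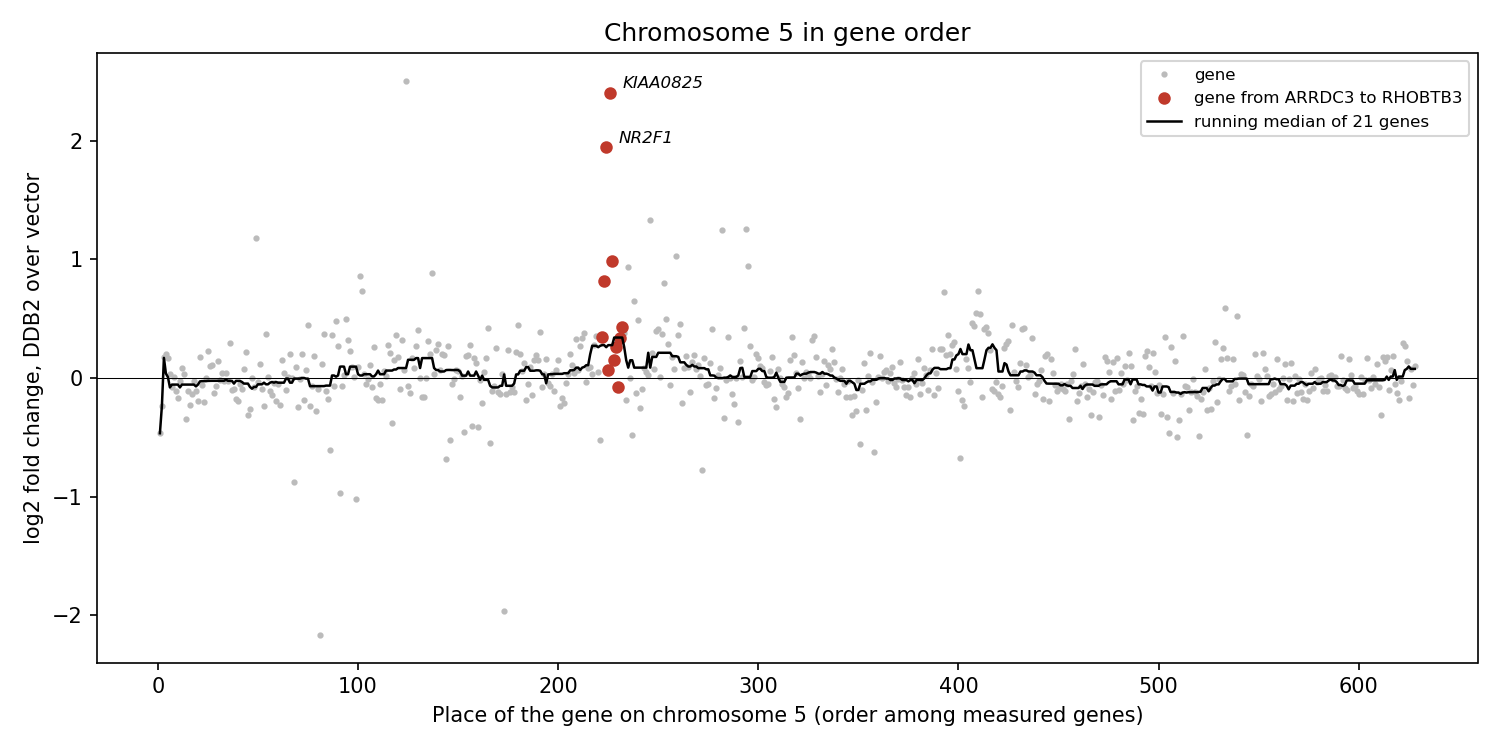
log2 fold change of DDB2 over vector clones (vertical axis) for the 628 measured genes of chromosome 5 in gene order (horizontal axis, place among measured genes), with the genes from ARRDC3 to RHOBTB3 in red and the running median of 21 genes as a black line. NR2F1 and KIAA0825 stand far above a running median that stays between 0.26 and 0.34 in the interval.

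Patterns over the clones were compared by the root mean square difference of values centred on each gene's mean over the 5 arrays, as a description. This difference counts the size of a rise as well as its shape. A gene with the same shape but a smaller rise thus lies farther away. The gene nearest to NR2F1 among 15395 others was DDB2 itself, at 0.152. DDB2, which the vector carries and which was 3.45-fold higher, had log2 values of 9.87, 9.00 and 9.14 in DDB2 clones 1, 2 and 3, against 7.84 and 7.25 in vector clones 1 and 3. As for NR2F1, DDB2 clone 1 was the highest and vector clone 3 the lowest. NR2F1 was chosen by its rise in the DDB2 clones and DDB2 is the transfected gene, so their closeness is in part set by that choice. HMGN5, a nucleosome-binding protein, followed at 0.370 and NAP1L3, a nucleosome assembly protein, at 0.390. NR2F1-AS1 was at place 26, at 0.582, the nearest among the genes of the interval.

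By this measure the genes nearest to KIAA0825 lay elsewhere in the genome, and none of its neighbors was among the first 100. Its neighbors other than NR2F1 rose by 0.99 or less, so they could hardly lie near by this measure, whatever their shape. BMERB1 on chromosome 16 was the nearest at 0.277, followed by PLK2, a polo-like kinase elsewhere on chromosome 5, at 0.308, and PLA2G4A, a phospholipase on chromosome 1, at 0.348. PLK2 had log2 values of 6.96, 9.39 and 9.66 in DDB2 clones 1, 2 and 3, against 6.60 and 5.72 in vector clones 1 and 3. It thus shared with KIAA0825 a DDB2 clone 1 close to vector clone 1. Of the genes of the interval, NR2F1 was at place 107 (0.938), SLF1 at place 130 (0.977) and MCTP1 at place 14847 (1.68) of 15395. The log2 fold change of NR2F1, 1.95, was larger than that of PLA2G4A, 1.88. DDB2 clone 1 was the highest clone of NR2F1 but the lowest DDB2 clone of KIAA0825.

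**Figure D4:**
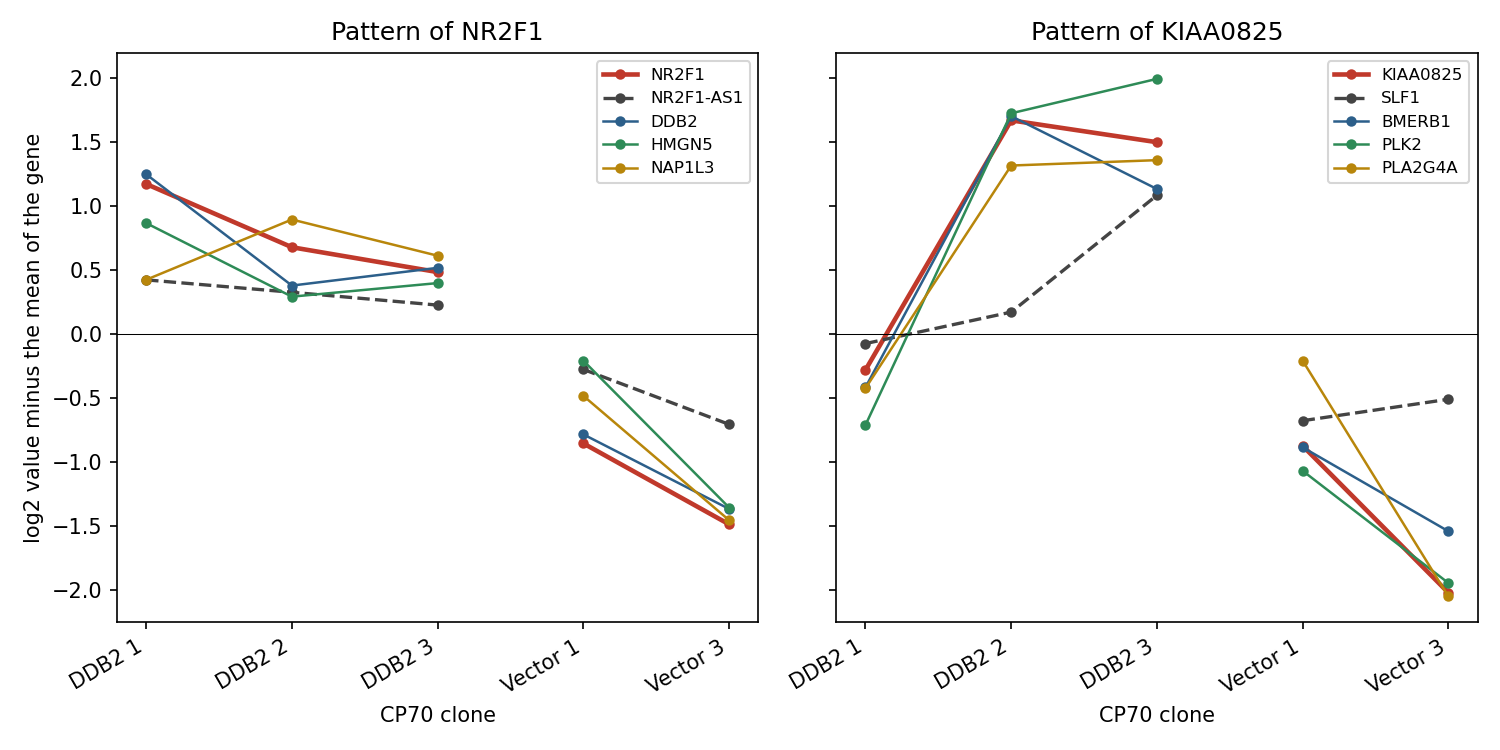
log2 values minus each gene's mean over the 5 arrays (vertical axis) in each clone (horizontal axis, DDB2 clones left of vector clones), for NR2F1, NR2F1-AS1 and the 3 genes nearest to NR2F1 (left panel), and for KIAA0825, SLF1 and the 3 genes nearest to KIAA0825 (right panel). NR2F1 and DDB2 lie close together, at a root mean square difference of 0.152, while KIAA0825, BMERB1, PLK2 and PLA2G4A all have DDB2 clone 1 well under DDB2 clones 2 and 3.

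The relatives and partners of these genes elsewhere in the genome mostly had small differences. Of all genes 0.169% were called higher and 0.195% lower, so a lack of calls in such short lists says little about their genes. Of the NR2F family, NR2F1 was called higher, and NR2F6, the other member with a probe set of its own, had a log2 fold change of -0.20 with log2 values of 7.61, 7.78 and 7.86 in DDB2 clones 1, 2 and 3, against 7.70 and 8.20 in vector clones 1 and 3. None of the 10 measured genes of the SMC5/6 complex and its SLF partners was called, with a median of -0.10, and SLF1 was the highest of them while SLF2, its partner, had 0.05. None of the 7 genes of the SKI complex and its exosome bridge was called (median -0.05), nor were any of 11 sulfatases (median -0.04), of the RHOBTB genes, of which RHOBTB2 had -0.08, or of 3 measured partners of NR2F1, namely RXRA at -0.15, RXRB at 0.38 and SOX9 at -0.40. MCTP2 was under the filter level on all arrays.

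Among these relatives outside the locus, the largest differences were those of a pair of alpha-arrestins, ARRDC4 and TXNIP. Of 5 measured alpha-arrestins none was called, with a median of 0.35. ARRDC4 had log2 values of 7.71, 7.93 and 6.17 in DDB2 clones 1, 2 and 3, against 6.55 and 4.43 in vector clones 1 and 3. TXNIP, the thioredoxin-interacting protein, had log2 values of 8.64, 9.19 and 7.30 in DDB2 clones 1, 2 and 3, against 8.16 and 5.01 in vector clones 1 and 3. Both genes were lowest in vector clone 3, which lay far below vector clone 1, and in both DDB2 clone 3 lay below vector clone 1. Their log2 fold changes were 1.78 (95% CI -0.45 to 4.01) and 1.79 (95% CI -1.09 to 4.67).

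Array medians ran from 4.40 to 4.42 in the DDB2 clones and from 4.40 to 4.45 in the vector clones. As markers of the epithelial state of the line, 4 of 5 epithelial genes passed the filter, and CDH1, which encodes E-cadherin, was under the filter level on all arrays. The mean level of the 5 ran from 5.62 to 6.02 in the DDB2 clones, against 6.12 to 6.38 in the vector clones, and EPCAM was called lower at -1.14. KRT18 had -0.64, with a log2 value of 6.75 in DDB2 clone 1 against 8.27 and 8.29 in DDB2 clones 2 and 3. KRT19 had -0.10, CDH1 -0.07 and KRT8 0.12. In EPCAM, KRT19 and CDH1 every DDB2 clone was under the lower vector clone, while the groups overlapped in KRT18 and KRT8. Among the genes that passed the filter, 12.5% were lower in this way. Whether the epithelial genes fell as a set was not tested. Their part in the differences at the locus was not tested. Of 3 ovarian and Mullerian markers 2 passed the filter at low values over the 5 arrays, PAX8 at 5.16 to 5.28 and MUC16 at 4.63 to 4.69. WT1 did not pass. None of 3 leukocyte markers passed the filter, while 2 of 3 fibroblast and 1 of 2 endothelial markers did. PTPRC, the leukocyte surface phosphatase, was at 2.35 to 2.41 in the DDB2 clones against 2.32 to 2.34 in the vector clones. DCN, the fibroblast marker that did not pass, had log2 values of 6.02, 2.50 and 2.57 in DDB2 clones 1, 2 and 3, against 4.01 and 2.91 in vector clones 1 and 3. It was high in DDB2 clone 1, the clone that stood apart at KIAA0825, and its part in that value was not tested.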

How the data were processed

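Total RNA of 5 CP70 clones was hybridized to the GeneChip Human Transcriptome Array 2.0, with a single array per clone. The authors ran RMA (background correction, normalization across arrays, 1 value per probe set) in the Affymetrix console and deposited log2 values. The log2 scale was read from the values. Conditions and clone numbers came from the sample titles. Vector clone 3 is called clone 2 in its source name.

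Of 70523 entries, 2995 controls were left out, and probe sets above 4.48 (the 50th percentile of all values) on at least 2 arrays were kept, 34141 of 67528. A gene is a symbol that a probe set carries alone, 21497 probe sets being matched to RefSeq by gene number and 1974 by symbol. A gene with several probe sets was represented by that with the highest mean. The DDB2 and vector clones were compared over all probe sets kept by lmFit and eBayes of limma 3.58.1 (R 4.3.3), with Benjamini-Hochberg adjustment. The methods state a linear regression with variance shrinkage and a filter whose noise level is not given in the sources used here. P-values measure the spread between clones, whose number limits the precision.

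The members, lists and alternatives were chosen with earlier results of these data known. Named were all members, DDB2, other genes of the interval, called genes of flanks and lists, and the 3 genes nearest in pattern to NR2F1 and to KIAA0825. PAM, ELL2, ERAP2 and the uncalled relatives and markers given with values were named after their values were seen. Gene order, start windows and their sequences are from RefSeq (GRCh38.p14), whose windows matched 9 of the 10 listed genes. The remaining gene of the list is not reported here. The code was tested on simulated arrays. Figures were drawn with matplotlib 3.10.9 in Python 3.11.15.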

Additional observations from a re-analysis of the deposited data

How the results depend on the processing

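The number of called locus genes was 2, and 1 with equal variances without shrinkage, 4 with a fold change over 1.5 (NR2F1-AS1 and SLF1 added), and 1 to 3 with an array left out. NR2F1 and KIAA0825 chose the locus by this same comparison, so their calls here are a description and no test of their rises. NR2F1 was called in all 16 alternatives, from 1.63 to 2.26. KIAA0825 was called in 10 of 16, from 1.83 to 3.03, and lost its call without shrinkage, when vector clone 3 or either of DDB2 clones 2 and 3 was left out, and with either replicate block. SLF1 was called in 3 and NR2F1-AS1 in 2 alternatives, no other neighbor in any. With the number in the titles as a replicate block, 2 locus genes (NR2F1 and SLF1, at 1.10) and 1 listed relative (ARRDC4) were called. With the clone number of the source names as a replicate block, added after the data were seen, 1 locus gene and 1 relative were, and ARSK was 0.070. The 2 shared numbers are too few to show that the clones are paired. Deviations of DDB2 and vector clones from their group means correlated at 0.130 for number 1 and 0.342 for number 3. With only 2 vector clones their deviations mirror each other. DDB2 clone 1 with vector clone 3 thus had -0.130 and DDB2 clone 3 with vector clone 1 had -0.342, so these values cannot show pairing.

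Relatives called numbered 0 in the comparison itself and 0 to 2 with an array left out. The flanking median was 0.08, and -0.015 to 0.270 with an array left out. The interval median was 0.34, and 0.091 to 0.429. MCTP1 was -0.74 to 1.04 and ARSK -0.44 to 0.29 in these settings. The causes were not tested. Over all genes, 26 were called higher and 30 lower, and the lower ones numbered 47 unfiltered and 12 under a 75th-percentile filter, which removed NR2F1-AS1 and MCTP1. Without shrinkage 6 and 16 were called, without vector clone 1 135 and 95, without DDB2 clone 1 138 and 79, and without vector clone 3 13 and 38.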
